A study of Mus musculus with 12 samples.

Results

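The genes examined here encode the adhesion structure that ties epithelial cells to laminin-332, and 7 of them were taken by symbol from the 23282 rows of the count tables: the laminin chains Lama3 and Lamb3, the integrin chains Itga6 and Itgb4, the transmembrane collagen Col17a1 and the plakins Plec and Dst. They were chosen by gene symbol with no threshold, but with their scaled counts in these same libraries in view, so their values describe these libraries and their p-values are not independent support. RNA was measured in C22 cells, a mouse club cell line that was conditionally immortalized with a temperature-sensitive T antigen and is a single line in culture. Each of 4 groups had 3 libraries. Cells carried either a negative control (NC) or a knockdown of Pdcd5 (siPdcd5), and each kind was measured untreated and 24 h after addition of TGF-β1 at 20 ng/ml (NC + TGF-β1 and siPdcd5 + TGF-β1). All cells were serum-starved for 2 h beforehand. The libraries read the 3′ ends of polyadenylated transcripts. Whether replicates came from separate cultures is not stated in the sources used here, so the p-values measure the spread between libraries, which may be technical.

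Laminin-332 is a basement membrane protein that contains an α3 and a β3 chain, encoded by Lama3 and Lamb3, and is assembled inside the cell before secretion. It is bound by integrin α6β4, and in the hemidesmosome the long β4 tail is linked through plectin, and in the fullest form also through collagen XVII and the epithelial form of dystonin (BP230), to keratin filaments. In airways the structure is best known from basal cells, and laminin-332 is also laid down by epithelial cells that spread over a wound.

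A promoter of Lamb3 is shown because Lamb3 was the member whose level differed most between the groups. The window holds 249 bases before 1 of the RefSeq start sites on the plus strand of GRCm38.p6, at chr1:193301744-193301992, and its capitals mark the match to CAGACA, a SMAD element of the CAGA type, which is read here on the opposite strand.
Lamb3: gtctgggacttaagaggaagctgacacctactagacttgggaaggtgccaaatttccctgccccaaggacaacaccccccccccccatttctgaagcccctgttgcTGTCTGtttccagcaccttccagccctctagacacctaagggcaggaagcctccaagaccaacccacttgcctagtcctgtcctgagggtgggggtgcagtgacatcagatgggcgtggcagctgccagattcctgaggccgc
The match lay 144 bases before the start site, and CAGACA was held on either strand by 17.1% of 32851 RefSeq promoter windows of 250 bases. The window had no match on either strand to TGANTCA (AP-1, held by 6.75% of the windows), CACCTG (an E-box of SNAI and ZEB factors, 17.2%), GGGCGG (GC box, 32.7%) or CATTCC (TEAD, 12.6%). The window of another Lamb3 start site, which overlaps annotated exons and is not printed, had the opposite pattern for 3 of these motifs, with a match to CACCTG and to CATTCC and none to CAGACA. Such matches are a description of the sequence and are not binding sites shown by these data. Of the 7 members, 3 (Lamb3, Dst and Col17a1) had an entry in the RefSeq promoter table.

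The libraries held 12809857 to 17714828 counts each. Levels are given in CPM, counts divided by library sizes that were scaled by the trimmed mean of M values (TMM), and on this scale 3 counts, the limit that a count of 0 allows, were 0.165 to 0.239 CPM. Pdcd5 was at 68.1 ± 4.68 CPM in untreated NC cells and 21.1 ± 1.07 CPM in untreated siPdcd5 cells, and with TGF-β1 at 67.8 ± 1.69 and 24.1 ± 2.26 CPM (mean ± SD, n = 3), without overlap between knockdown and control libraries. The club cell markers were largely absent: Scgb3a2 and Cyp2f2 had 0 counts in every library, Scgb1a1 had 1 count in 1 library, and of the 6 markers only Aldh1a1 passed the filter on low counts. Among the 4 epithelial markers, Epcam never exceeded 1 count, while Cdh1, Krt8 and Krt18 had means of 3.18, 189 and 495 CPM in NC cells. Among the 7 fibroblast markers, the collagen Col1a1 was at 2719 ± 76.4 CPM in NC cells (n = 3). There Dcn had a mean of 95.7, Pdgfrb 15.2, Pdgfra 5.90, Col1a2 3.58 and Thy1 0.10 CPM, and Lum had 0 counts. Markers of immune cells summed to 7.02 to 12.03 CPM per library, nearly all of it Cd68, and those of endothelium to 0.585 to 2.47 CPM. In pairwise comparisons of replicates, replicate 2 of NC + TGF-β1 and replicate 1 of siPdcd5 stood apart from the other replicates of their groups, with chi-square values per degree of freedom of 26.8 to 62.7 against 4.40 to 12.1 for the remaining pairs.

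TGF-β1 raised 1 member, Lamb3, in both NC and siPdcd5 cells, by 11.7-fold and 10.5-fold, and no member passed the test after Pdcd5 knockdown. Of the 7 members, 5 passed edgeR's filter on low counts, while Lama3 and Col17a1 did not. In the quasi-likelihood test of edgeR with Benjamini-Hochberg adjustment over 12425 genes, 1 of the 5 members was called changed after TGF-β1 in NC cells, where 15.3% of all genes were called (8.57% higher). In siPdcd5 cells 1 of 5 was called, where 16.1% of all genes were called (8.50% higher). Knockdown called 0 of 5 members without TGF-β1 and 0 of 5 with it, where 3.44% and 1.55% of all genes were called. The difference between the TGF-β1 responses of siPdcd5 and NC cells (the interaction) called 0 of 5 members and 0.00% of all genes, although 638 genes (5.13%) had an unadjusted p under 0.05 and DESeq2 called 13 genes. The median log2 fold change of the 5 members was 0.27 after TGF-β1 in NC cells and 0.33 in siPdcd5 cells, beside 0.005 and −0.03 over all genes. After knockdown it was −0.19 without and −0.20 with TGF-β1, beside 0.02 and −0.02 over all genes. Each knockdown comparison shares its control libraries with a TGF-β1 comparison, so these values are not independent of each other. In bulk RNA, fewer cells of a type and less RNA per cell cannot be told apart.

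**Figure D1:**
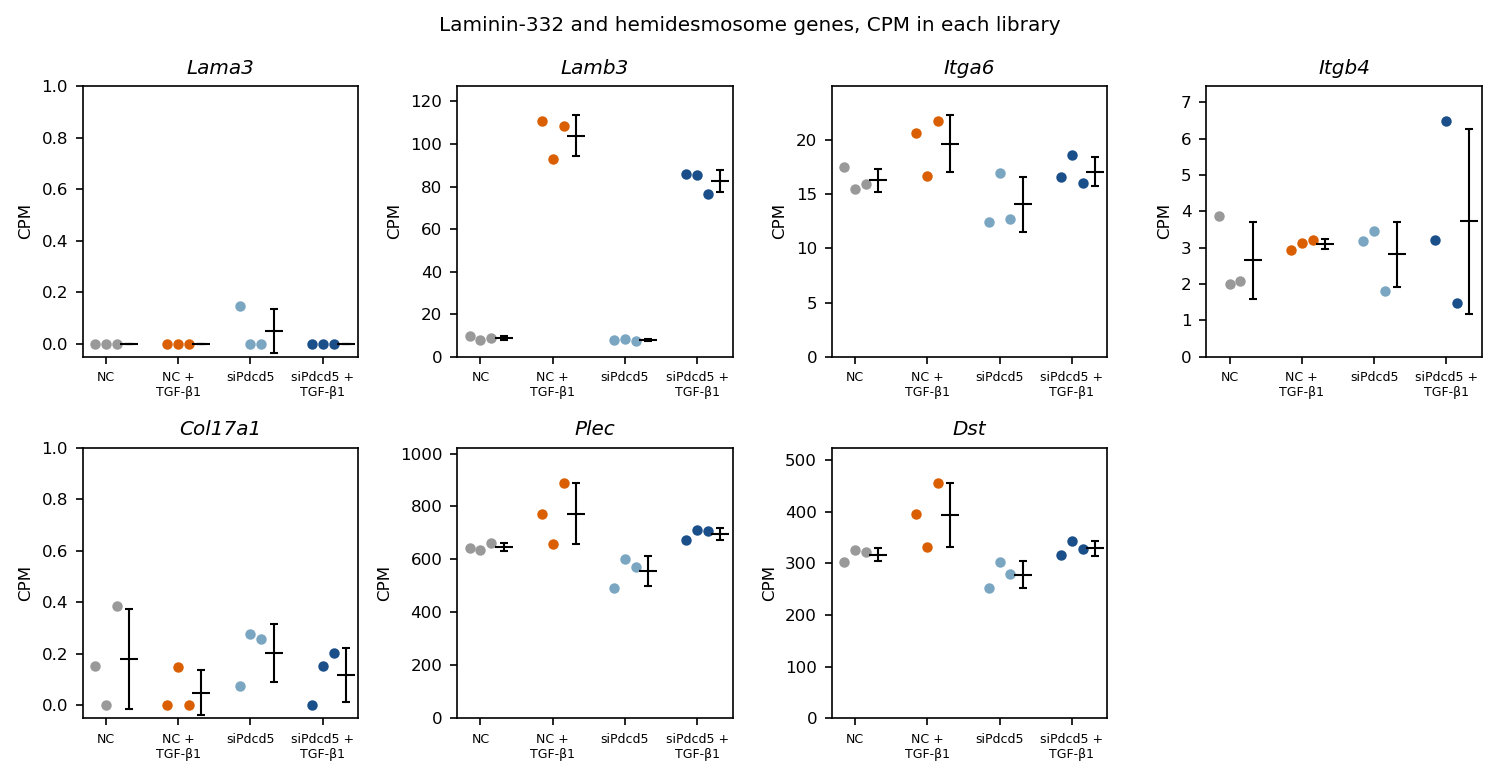
Level of each member in CPM on the vertical axis of each panel, for the 4 groups on the horizontal axis. Points are libraries and bars the mean ± SD of 3 libraries; Lamb3 libraries lie between 7.34 and 9.81 CPM without and between 76.7 and 111 CPM with TGF-β1, whereas Lama3 has counts in 1 of 12 libraries.

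Lamb3 encodes the β3 chain, a subunit found among laminins chiefly in laminin-332, and lies on chromosome 1 at 193207699 to 193343878 (GRCm38, plus strand), with no annotated exonic base shared with another gene. The 4 coding transcripts of Lamb3 have 3 annotated 3′ ends, up to 17.89 kb apart, and were not measured apart. The level of Lamb3 was 9.81, 7.94 and 8.91 CPM in the 3 NC libraries and 111, 92.9 and 108 CPM once TGF-β1 was added. It was 7.90, 8.44 and 7.34 CPM in siPdcd5 libraries and 86.0, 85.3 and 76.7 CPM in siPdcd5 + TGF-β1 libraries. Every library with TGF-β1 was thus far above every library without it, and the siPdcd5 + TGF-β1 libraries all lay below the NC + TGF-β1 libraries. The counts behind these levels ran from 107 to 153 without and from 1106 to 1483 with TGF-β1.

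The log2 fold change of Lamb3 after TGF-β1 was 3.55 ± 0.12 (SE; 95% confidence interval 3.29 to 3.80; adjusted p = 4.9e-10, edgeR with Benjamini-Hochberg adjustment) in NC cells. In siPdcd5 cells it was 3.39 ± 0.12 (3.13 to 3.64; adjusted p = 8.6e-10). These were the smallest adjusted p-values of all genes tested in either comparison, and Lamb3 ranked 21 and 22 by log2 fold change among 12425 genes. The TGF-β1 responses differed between siPdcd5 and NC cells by −0.16 on the log2 scale (95% confidence interval −0.51 to 0.18; adjusted p = 0.96), so differences within these bounds could not be resolved with 3 libraries a group. Knockdown gave a Lamb3 log2 fold change of −0.17 without TGF-β1 (−0.44 to 0.10; adjusted p = 0.576). With TGF-β1, where the means were 82.7 ± 5.2 CPM in siPdcd5 and 104 ± 9.67 CPM in NC cells, it was −0.33 (−0.55 to −0.11; adjusted p = 0.14), which did not pass the threshold although the libraries of the groups did not overlap, as was the case in either direction for 18.9% of all genes. Without NC + TGF-β1 replicate 2 this value was −0.41 with an adjusted p of 0.0434 by edgeR, while the calls among all genes went from 192 to 322.

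RNA of Lama3, whose α3 chain is part of every laminin-332 trimer, was not detectable at this depth in 11 of 12 libraries. Lama3 had 2 counts in siPdcd5 replicate 1 and 0 counts in each of the other libraries. No fold change is given, since no group exceeded 3 counts. Each count of 0 allows a level of up to 0.165 to 0.239 CPM, depending on the library. The 3′ end read by the assay was annotated at a single position for Lama3, and whether the authors' gene models cover the 3′ end that these cells use was not tested. Among the other α chains, Lama1 had 1 count over the 12 libraries, Lama2 13 and Lama4 0. Lama5, which encodes the α5 chain of laminin-511 and laminin-521, had 1296 to 2562 counts in each library and means of 166 ± 13.7 CPM in NC and 134 ± 12.2 CPM in siPdcd5 cells, and of 142 ± 31.5 and 111 ± 9.47 CPM in the same cells with TGF-β1 (SD, n = 3). Its log2 fold changes were −0.22 and −0.28 after TGF-β1 and −0.30 and −0.36 after knockdown, with adjusted p-values of 0.324, 0.194, 0.296 and 0.239 by edgeR.

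The integrin α6 chain, which pairs with β4 in hemidesmosomes and with β1 elsewhere, is encoded by Itga6 on chromosome 2 (71745616 to 71858416, plus strand). It was at 17.5, 15.5 and 15.9 CPM in NC and 20.6, 16.7 and 21.7 CPM in NC + TGF-β1 libraries. In siPdcd5 libraries it was at 12.5, 16.9 and 12.7 CPM and in siPdcd5 + TGF-β1 libraries at 16.6, 18.6 and 16.1 CPM. The groups overlapped in each of the 4 comparisons. TGF-β1 gave log2 fold changes of 0.27 in NC cells (95% confidence interval −0.04 to 0.59; adjusted p = 0.26, edgeR) and 0.28 in siPdcd5 cells (−0.04 to 0.59; adjusted p = 0.235). Those after knockdown were −0.21 and −0.20, with adjusted p-values of 0.553 and 0.592 by edgeR. The intervals after TGF-β1 leave room for a rise, but for none near that of Lamb3.

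Itgb4, whose product carries the long tail that binds plectin, lies on chromosome 11 (115974709 to 116008412, plus strand) and shares 537 exonic bases with the antisense RNA gene B230344G16Rik, whose reads cannot be told apart from its own where strand was not used. It rested on few counts, 22 to 84 per library. In NC cells its level was 3.88, 2.00 and 2.07 CPM untreated and 2.95, 3.14 and 3.22 CPM with TGF-β1. In siPdcd5 cells it was 3.17, 3.47 and 1.80 CPM untreated and 3.22, 6.48 and 1.48 CPM with TGF-β1. The lowest and the highest of all libraries were thus both in the siPdcd5 + TGF-β1 group, and all groups overlapped. The log2 fold change after TGF-β1 was 0.23 in NC cells (−0.73 to 1.18; adjusted p = 0.807, edgeR) and 0.38 in siPdcd5 cells (−0.53 to 1.3; adjusted p = 0.6). Without siPdcd5 + TGF-β1 replicate 2 the value in siPdcd5 cells was −0.26 (adjusted p = 0.753), so 1 library set its direction. Both intervals hold 0 as well as a doubling.

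Col17a1, which encodes collagen XVII (BP180), the transmembrane protein of the complete hemidesmosome, was at the limit of detection. It lies on chromosome 19 (47646344 to 47692094, minus strand). In NC cells its counts were 2, 0 and 5 untreated and 0, 2 and 0 with TGF-β1. In siPdcd5 cells they were 1, 5 and 4 untreated and 0, 2 and 3 with TGF-β1, which made 24 in all. The groups overlapped in every comparison, and no fold change is given.

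Plec encodes plectin, the cytolinker between integrin β4 and keratin filaments, which also joins other filaments and adhesions. The gene lies on chromosome 15 (76170974 to 76232574, minus strand), with 8 annotated 3′ ends among its 21 coding transcripts, so the epithelial isoform was not measured apart from the others, and it shares 205 exonic bases with Parp10. Its level was 643, 636 and 663 CPM in NC and 772, 657 and 889 CPM in NC + TGF-β1 libraries. In siPdcd5 libraries it was 492, 601 and 572 CPM and in siPdcd5 + TGF-β1 libraries 672, 712 and 709 CPM. The siPdcd5 libraries lay below those of NC, a comparison in which 23.1% of all genes had no overlap in either direction. They also lay below those of siPdcd5 + TGF-β1, where 17.9% of all genes were higher with TGF-β1 without overlap. NC and NC + TGF-β1 overlapped through replicate 2 of the latter. The log2 fold change after TGF-β1 was 0.26 in NC cells (95% confidence interval 0.02 to 0.49; adjusted p = 0.14, edgeR) and 0.33 in siPdcd5 cells (0.10 to 0.56; adjusted p = 0.0533). Knockdown gave −0.22 without (adjusted p = 0.348) and −0.15 with TGF-β1 (adjusted p = 0.607).

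Dst encodes dystonin, of which the epithelial form BP230 binds keratins in hemidesmosomes while other forms serve nerve, muscle and the general cytoskeleton. It lies on chromosome 1 (33908225 to 34308661, plus strand). Its 14 coding transcripts have 13 annotated 3′ ends, so that its counts mix isoforms, and it overlaps 2 genes on the opposite strand (Gm26788 and A930005N03Rik, by 1037 and 456 exonic bases). Its level was 303, 327 and 322 CPM in NC and 395, 331.5 and 456 CPM in NC + TGF-β1 libraries. In siPdcd5 libraries it was 252, 303 and 280 CPM and in siPdcd5 + TGF-β1 libraries 316, 344 and 327 CPM. In NC and in siPdcd5 cells the TGF-β1 libraries lay above the untreated ones without overlap, by a small margin. This was the case in the same direction for 15.3% of all genes in NC and 17.9% in siPdcd5 cells. The siPdcd5 libraries also lay just below the NC libraries without overlap, as was the case in either direction for 23.1% of all genes. The log2 fold change after TGF-β1 was 0.31 in NC cells (0.08 to 0.55; adjusted p = 0.0726, edgeR) and 0.24 in siPdcd5 cells (0.004 to 0.48; adjusted p = 0.165). Knockdown gave −0.19 without (adjusted p = 0.458) and −0.26 with TGF-β1 (adjusted p = 0.305).

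The test of the plakins depended on NC + TGF-β1 replicate 2, which held the lowest value of its group for both. Without that library, TGF-β1 in NC cells gave log2 fold changes of 0.36 for Plec (adjusted p = 0.0134, edgeR) and 0.42 for Dst (adjusted p = 0.00447). Then 3 members were called, but the calls among all genes also went up, from 1906 to 2554, so the gain was not particular to the plakins. The interaction was 0.07 for Plec (95% confidence interval −0.25 to 0.40) and −0.07 for Dst (−0.41 to 0.26). For Itga6 it was 0.005 (−0.44 to 0.45) and for Itgb4 0.16 (−1.16 to 1.48). The intervals of all 5 members tested hold 0.

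**Figure D2:**
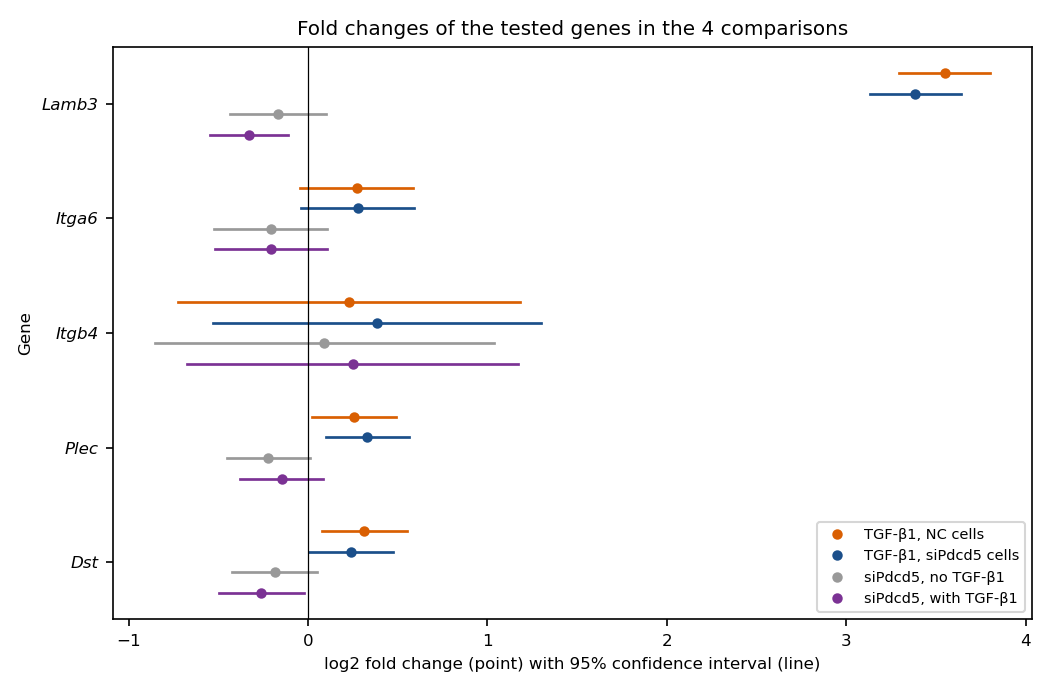
Log2 fold changes (horizontal axis) of the 5 members tested (vertical axis) in the 4 comparisons, with points for the estimates and lines for their 95% confidence intervals. Lamb3 lies at 3.55 and 3.39 after TGF-β1 in NC and siPdcd5 cells, and the estimates for Itga6, Itgb4, Plec and Dst lie between −0.26 and 0.38 in all comparisons.

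Lamb3 was the only member whose group means differed by at least 1 on the log2 scale, and the genes with the most similar profile were sought by the root mean square difference of centred log2 CPM over the 12 libraries. They were Tnnt2, a troponin of muscle, with a difference of 0.373, Pmepa1, a known TGF-β target and feedback inhibitor, with 0.410, and Postn, the matricellular protein periostin, with 0.459. Tnnt2 had mean levels of 27.3 CPM in NC and 29.4 CPM in siPdcd5 cells, and of 198 and 215 CPM in the same cells with TGF-β1. The means of Pmepa1 were 211, 212, 1398 and 1353 CPM in this order. Those of Postn were 3.58, 3.38, 86.5 and 51.4 CPM.

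Around the members stand 34 other genes of the pathway (other laminin chains, receptors, plakins, keratins, anchoring fibril genes and proteases of laminin-332), of which 23 were tested. After TGF-β1, 10 were called higher and 1 lower in NC cells, and 9 higher and 1 lower in siPdcd5 cells, with median log2 fold changes of 0.35 and 0.29. After knockdown, 0 were called higher and 5 lower without TGF-β1, and 0 higher and 4 lower with it, with medians of −0.23 and −0.31. Of all genes, 8.57% were called higher and 6.77% lower after TGF-β1 in NC cells, and 8.50% and 7.61% in siPdcd5 cells. After knockdown the shares were 0.901% higher and 2.54% lower without TGF-β1, and 0.330% and 1.22% with it. The list was drawn up with earlier results of these libraries known.

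The keratins that plakins bind rose with TGF-β1, 3 of 3 tested in NC as well as in siPdcd5 cells. Krt14, the basal cell keratin that assembles with Krt5, was at 10.8 ± 1.02 CPM in NC and 187 ± 20.9 in NC + TGF-β1 cells, and at 3.51 ± 1.51 in siPdcd5 and 82.4 ± 6.64 in siPdcd5 + TGF-β1 cells (SD, n = 3). Its log2 fold changes were 4.11 ± 0.20 and 4.52 ± 0.22 after TGF-β1 (adjusted p = 6.8e-09 and 6.7e-09, edgeR). After knockdown Krt14 fell by 1.60 on the log2 scale without TGF-β1 (adjusted p = 0.00144) and by 1.18 with it (adjusted p = 0.00219). Its partner Krt5 had 0 to 3 counts in any library, and Trp63, which defines basal cells, also 0 to 3. The keratins of simple epithelia, Krt8 and Krt18, rose by 1.36 and 1.05 in NC cells (adjusted p = 8.6e-07 and 6.2e-05) and by 1.21 and 1.37 in siPdcd5 cells (adjusted p = 3.0e-06 and 5.7e-06), and neither passed the test after knockdown.

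Among the other laminin chains, 5 of 8 were tested. Lamb1, the β1 chain of laminin-111 and laminin-511, rose with TGF-β1 by 0.42 in NC (adjusted p = 0.00139, edgeR) and 0.73 in siPdcd5 cells (adjusted p = 1.2e-05). It was lower after knockdown without TGF-β1, with a log2 fold change of −0.48 (adjusted p = 0.00286). The Lamb1 interaction was 0.31 (95% confidence interval 0.07 to 0.54, adjusted p = 0.949), where 5.13% of all genes had an unadjusted p under 0.05. Lamc1, the γ1 chain of most laminins, rose by 0.55 in NC cells (adjusted p = 0.00667). In siPdcd5 cells its log2 fold change was 0.29 (adjusted p = 0.139), but the interaction was −0.26 with a 95% confidence interval of −0.64 to 0.12. With TGF-β1, knockdown gave a log2 fold change of −0.54 for Lamc1 (adjusted p = 0.0492).

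Of the receptors and associated membrane proteins, 6 of 8 were tested. Itgb1, the β1 chain with which α6 and α3 also pair, rose with TGF-β1 from 902 ± 28.4 to 1445 ± 75.5 CPM in NC cells and from 768 ± 47.1 to 1211 ± 22.8 CPM in siPdcd5 cells (SD, n = 3), log2 fold changes of 0.68 and 0.66 (adjusted p = 3.2e-05 and 4.9e-05, edgeR). After knockdown without TGF-β1, Itga3, the α chain of the other laminin-332 receptor α3β1, had a log2 fold change of −0.53 (adjusted p = 0.0424). Erbin (listed as Erbb2ip), which binds the integrin β4 tail, had one of −0.44 (adjusted p = 0.00558) in that comparison. Neither was called with TGF-β1, and the interaction of both was not significant (adjusted p = 0.988 and 0.949). Fermt1, the integrin activator of epithelial cells, had 0 counts in all NC and siPdcd5 libraries and at most 5 in any other.

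Ppl, which encodes periplakin of the cornified envelope and desmosomes, went the other way from the keratins after TGF-β1, but was lower after knockdown, as was Krt14. It was at 93.4 ± 9.24 CPM in NC and 34.8 ± 2.39 in NC + TGF-β1 cells, and at 64.3 ± 2.78 in siPdcd5 and 22.8 ± 1.76 in siPdcd5 + TGF-β1 cells (SD, n = 3). Its log2 fold change was −1.42 and −1.50 after TGF-β1 (adjusted p = 2.6e-07 and 2.2e-07, edgeR) and −0.54 and −0.61 after knockdown (adjusted p = 0.00774 and 0.00817). It was the 1 plakin outside the members that passed the test, of 4 tested.

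Of the anchoring fibril and Fraser complex genes, 1 of 2 tested rose with TGF-β1 in NC as well as in siPdcd5 cells. Col7a1, which forms the anchoring fibrils that bind laminin-332 from below, rose by 1.49 in NC (adjusted p = 0.00116, edgeR) and 1.32 in siPdcd5 cells (adjusted p = 0.00261). Fras1, a basement membrane protein of the Fraser complex, was at 5.91 ± 0.528 and 3.60 ± 0.58 CPM in NC cells without and with TGF-β1. In siPdcd5 cells it was at 4.26 ± 0.76 and 2.63 ± 0.737 CPM (SD, n = 3). With log2 fold changes of −0.71 and −0.70 it did not pass the test (adjusted p = 0.0508 and 0.0627, edgeR). Of the proteases that process laminin-332, 3 of 3 tested rose with TGF-β1 in NC as well as in siPdcd5 cells. Bmp1, a protease that trims laminin-332, rose by 0.60 and 0.46, Mmp14 by 1.17 and 0.93, and Mmp2 by 0.63 and 0.39, with adjusted p-values of at most 0.0025. After knockdown with TGF-β1, Mmp14 had a log2 fold change of −0.40 (adjusted p = 0.0428).

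**Figure D3:**
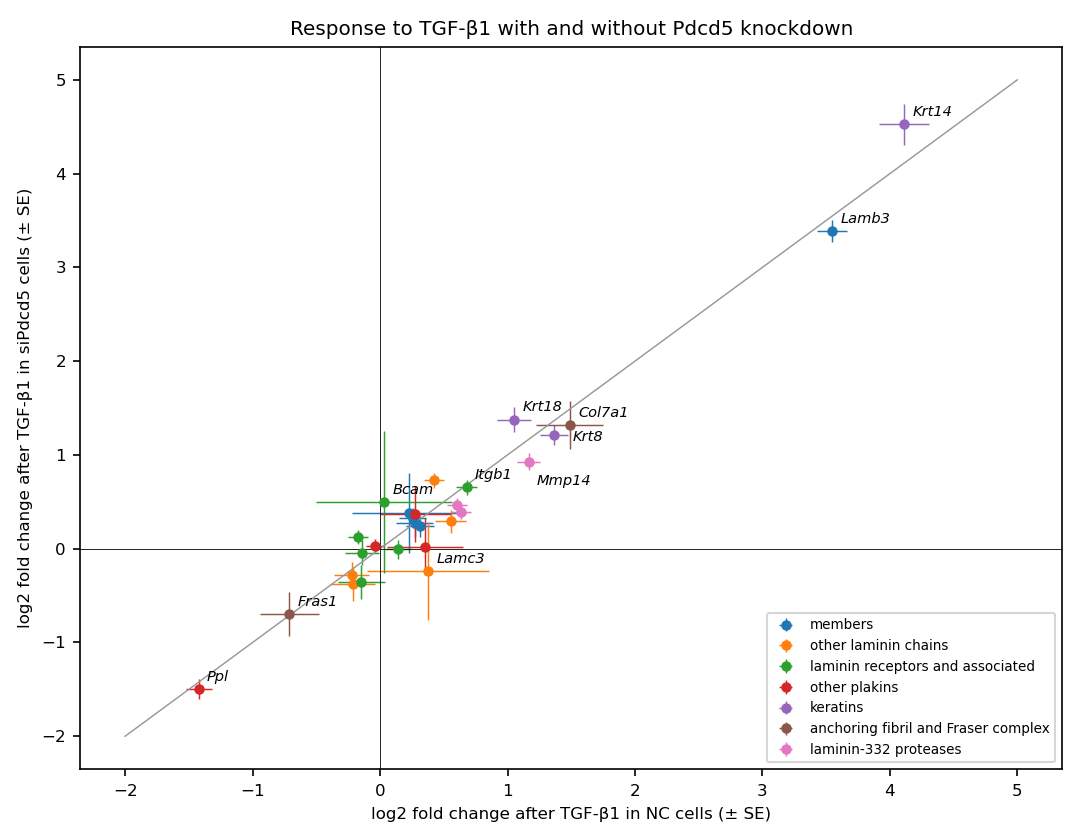
Log2 fold change after TGF-β1 in NC cells (horizontal axis) against that in siPdcd5 cells (vertical axis) for the 5 members and 23 other pathway genes tested, with SE bars, coloured by list, and the line of equal response. Krt14 (4.11 and 4.52) and Lamb3 (3.55 and 3.39) lie farthest up, Ppl (−1.42 and −1.50) lies farthest down, and the other members lie near 0.

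Markers of some other cell types differed between the groups as well, while the 1 immune and the 1 endothelial marker tested were not called. The 5 basal cell markers summed to 10.4 to 12.4 CPM in NC and 3.40 to 4.96 CPM in siPdcd5 libraries, and to 169 to 210 and 75.2 to 88.5 CPM with TGF-β1, of which Krt14 made up nearly all. The 7 fibroblast markers summed to 2751 to 2921, 1878 to 2341, 5968 to 6616 and 4552 to 4743 CPM in the same order, nearly all of it Col1a1. Within this list the genes did not move together. After TGF-β1, 3 of 5 tested were called higher in NC and 2 of 5 in siPdcd5 cells, while Dcn, the proteoglycan decorin, was lower in both (log2 fold changes −2.08 and −1.80, adjusted p = 6.5e-09 and 1.9e-08, edgeR). After knockdown without TGF-β1, 2 of 5 were called higher and 1 lower. There Dcn and Col1a2 had log2 fold changes of 0.59 and 1.74 (adjusted p = 0.00234 and 6.3e-04, edgeR). That of Col1a1 was −0.47 (adjusted p = 0.0148). With TGF-β1, knockdown called 1 higher and 1 lower. The 6 club cell markers summed to 547 to 556, 292 to 326, 231 to 245 and 155 to 165 CPM, nearly all of it Aldh1a1. Knockdown gave Aldh1a1 log2 fold changes of −0.86 without and −0.57 with TGF-β1 (adjusted p = 2.7e-05 and 0.00145, edgeR). The 4 markers of alveolar type 1 cells summed to 436 to 493, 317 to 466, 258 to 409 and 363 to 395 CPM. The 5 markers of alveolar type 2 cells summed to 24.6 to 27.1, 21.2 to 22.3, 20.6 to 21.9 and 21.2 to 22.5 CPM. The part of all these markers in the results for Lamb3 and the other genes was not tested.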

How the data were processed

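RNA of 12 C22 cell libraries was read by QuantSeq 3′ mRNA-seq. The authors mapped single-end reads by Bowtie2 and obtained counts from unique as well as multiple alignments using Bedtools, and the deposited values are these raw counts per gene symbol. The submitters' processing notes name mm10; the annotation and the use of strand are not given in the sources used here. The quantile normalization in edgeR that the study's methods name is not in the deposited counts. Groups came from the sample labels.

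Values were computed with R 4.3.3, edgeR 4.0.16, limma 3.58.1 and DESeq2 1.42.0. Of 23282 rows, 5134 had no count, and 44 rows repeated one of 35 symbols, which were kept apart. The default filter of edgeR left 12425 genes. One quasi-likelihood model with TMM factors was fitted to the 4 groups, and a gene was called when its Benjamini-Hochberg adjusted p was under 0.05. Standard errors and 95% confidence intervals come from this fit, and log2 CPM used a prior count of 2. Members, lists and alternatives were chosen with earlier results of these data known. The text names the 7 members, Pdcd5, list genes past the threshold, the 3 genes closest in profile to a member whose group means span at least 1 on the log2 scale (among genes whose log2 CPM averaged 3 or more), and cell type markers. Lama1, Lama2, Lama4, Lama5, Krt5, Fermt1 and Fras1 were named after their values were seen. Reads carry no molecular identifiers, so limits at 3 counts cover counting error only. One gene of the lists is not reported here. Positions are from the GENCODE annotation of GRCm38. As alternatives, the Wald test of DESeq2, factors from the upper quartile, limma-trend after quantile normalization, no filter, a minimum of 10 counts in each library, the 6 libraries of a comparison alone, the replicate number as a block and each library left out were tried.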

Additional observations from a re-analysis of the deposited data

How the results depend on the processing

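The rise of Lamb3 after TGF-β1 passed the threshold under all 13 alternatives in NC and in siPdcd5 cells. Its log2 fold changes were 3.47 to 3.62 in NC and 3.34 to 3.44 in siPdcd5 cells. With DESeq2 the members called after TGF-β1 were 2 in NC cells (Dst 0.31, adjusted p = 0.0479, beside Lamb3) and 2 in siPdcd5 cells (Plec 0.34, adjusted p = 0.024, beside Lamb3). In these comparisons DESeq2 called 2213 rather than 1906 and 2369 rather than 2002 of all genes. Genes called by it numbered 714 rather than 427 after knockdown without TGF-β1, 458 rather than 192 with it and 13 rather than 0 for the interaction. With only the 6 libraries compared, 2 members were called after TGF-β1 in siPdcd5 cells (Plec 0.34, adjusted p = 0.0367, edgeR), where 2116 rather than 2002 genes were called. After knockdown with TGF-β1, 44 genes were called in that setting. Quantile normalization gave 51 higher and 110 lower calls after knockdown with TGF-β1, beside 41 and 151, and turned the Itgb4 interaction to −0.012. The cause of these shifts was not tested.

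Leaving out 1 library at a time gave 1 to 3 members and 1391 to 2554 genes after TGF-β1 in NC cells, 1 to 2 members and 1371 to 1737 genes in siPdcd5 cells, 0 members and 167 to 324 genes after knockdown without TGF-β1, 0 to 1 members and 73 to 322 genes with it, and 0 members and 0 to 2 genes for the interaction. Without NC + TGF-β1 replicate 2, 3 members were called after TGF-β1 in NC cells, where 2554 genes were called. In that setting 1 (Lamb3) was called after knockdown with TGF-β1, where 322 genes were called. Without siPdcd5 replicate 2, Plec was called in siPdcd5 cells (0.39, adjusted p = 0.0488, edgeR), where 1653 genes were called. The knockdown counts moved over 1.5-fold without NC replicates 1, 2 or 3 (235, 167 and 206) or siPdcd5 replicate 3 (210), and, with TGF-β1, without NC + TGF-β1 replicates 1, 2 or 3 (111, 322 and 121) or siPdcd5 + TGF-β1 replicates 1, 2 or 3 (87, 81 and 73). Signs turned only for values that did not pass the test. Over the libraries left out, the Itgb4 log2 fold change ranged from −0.26 to 0.77 after TGF-β1 in siPdcd5 cells and from −0.40 to 0.64 after knockdown with TGF-β1, both negative without siPdcd5 + TGF-β1 replicate 2, and from −0.10 to 0.47 after knockdown without TGF-β1. The interaction ranged from −0.49 to 0.55 for Itgb4, −0.10 to 0.17 for Itga6, −0.029 to 0.18 for Plec and −0.18 to 0.039 for Dst. Of the values of single members, 327 kept direction and call, 7 became called and 16 changed sign.

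Same-numbered libraries' deviations correlated with r between −0.32 and 0.17 over the 4 comparisons, which cannot settle pairing with 3 libraries a group. With the replicate number as a block, 107 rather than 192 genes were called after knockdown with TGF-β1, the other counts were 1687, 1731, 301 and 0, and no member's call changed. Over all genes the square root of the common dispersion was 0.132. Itgb4, with 22 to 84 counts per library, had SEs of 0.44 in NC and 0.43 in siPdcd5 cells after TGF-β1. With 3 libraries a group its changes stayed unresolved, and Lama3 and Col17a1 were limited by counts of 0 to 5.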
